A study of Mus musculus with 6 samples.

Results

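The RING and PCGF subunits form the core of Polycomb repressive complex 1 (PRC1), and 8 genes that encode them were followed here: Ring1, Rnf2, Bmi1, Pcgf1, Pcgf2, Pcgf3, Pcgf5 and Pcgf6. They were chosen by gene symbol, out of 16821 symbols in the table of the WT and RingKO libraries and 15916 in the table of the beta-catenin libraries. A symbol with several RefSeq entries was taken by its entry with the highest mean, and all 8 genes were in both tables. The RNA came from Lgr5-GFP+ cells sorted from small-intestinal crypts of C57BL/6 mice that had received 3 injections of tamoxifen and were killed after 6 days. Every group, controls included, carried Lgr5Gfp-CreERT2, in which the locus of Lgr5, a Wnt co-receptor gene of crypt base stem cells, drives GFP and a tamoxifen-activated Cre recombinase. RingKO cells (2 libraries) also carried Ring1a-/- and Ring1bf/f, that is, null alleles of Ring1 in all cells and floxed alleles of Rnf2 that Cre can delete only where Lgr5 is active. WT cells (2 libraries) had Lgr5Gfp-CreERT2 alone. Bcat_RingKO cells (1 library) combined Ctnnb1-ex3, an allele of the beta-catenin gene, with Ring1a-/- and Ring1bf/f, and Bcat cells (1 library) had Ctnnb1-ex3 without the Ring alleles. The ages of the mice, and which part of Rnf2 is floxed, are not stated in the labels.

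PRC1 places a ubiquitin mark on histone H2A at silent developmental genes. Its catalytic core pairs a RING protein, RING1 or RNF2 (also called RING1A and RING1B), with a PCGF protein that decides which complex is built. BMI1 (PCGF4) and PCGF2 (MEL18) are close relatives that enter canonical PRC1, with the CBX proteins that read methylated histone H3 and the PHC proteins, while PCGF1, PCGF3, PCGF5 and PCGF6 enter variant complexes with RYBP or YAF2. In the intestine Bmi1 is known for its role in self-renewal, for repressing the cell cycle inhibitor gene Cdkn2a, and as a label of crypt cells above the base.

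The libraries held 2911422 and 2651201 reads in RingKO, 6753789 and 6294932 in WT, 4470853 in Bcat_RingKO and 922153 in Bcat, so the Bcat values are the least precise. Within a group the libraries carry the letters A and B, which have no order. Over 7939 entries averaging 50 or more, the log2 ratio of library A to library B had an SD of 0.45 in RingKO and 0.25 in WT, and the squared ratio was 11.8 and 6.23 times what counting error gives, so no library was a copy of another. Nothing in the labels says that libraries are from different animals, so the p-values reflect just the spread among these libraries, which may be technical. All 5 Lgr5 stem cell markers had reads in every library, as did all 5 epithelial markers. The 6 immune markers summed to 46.9 and 70.4 normalized reads in RingKO and 34.5 and 32.4 in WT. Lyz2 held much of that sum, at 39.8 and 33.0 in RingKO and 21.1 and 20.4 in WT, and Cd79a reached 28.7 in RingKO library B. Ptprc and Itgam were at 0 in both RingKO libraries and at 2 reads or fewer in WT. Cdkn2a, the textbook target of Bmi1, had 22 and 31 reads in RingKO and 0 and 0 in WT, at least 37.6-fold higher when the WT group is set to a floor of 3 reads in all (adjusted p = 4.34e-08 in the authors' deposited table). It had 45 reads in Bcat_RingKO and 0 in Bcat. Of its 2 entries the larger is given.

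Of the 8 subunit genes 1, Ring1, fell and 0 rose by the adjusted p of the authors' deposited table, where 1.76% of 18376 entries were called lower and 3.14% higher. Over both directions the authors' deposited table called 4.9% of all entries, and 8.04% of those averaging 10 or more. Before adjustment Bmi1 also had p under 0.05 there. On the recovered reads of the single libraries, edgeR's quasi-likelihood test, DESeq2 and limma also called Bmi1 as higher in RingKO, so that 1 gene was called in each direction. In edgeR 9.91% of 11170 entries were called higher and 2.95% lower, in DESeq2 6.88% and 1.89%, and in limma 7.58% and 5.46%. Ring1 carried null alleles in RingKO, so its call checks the genotype. A single further call against shares of this size is a result about Bmi1 and not about the genes as a group. Rnf2, whose alleles were floxed in RingKO, and the other PCGF genes passed none of these tests.

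Ring1, one of the 2 catalytic subunits, carried null alleles, and its reads check the genotype labels. It had 9 and 11 reads in RingKO and 484 and 363 in WT, or 12.8 and 15.8 normalized reads in RingKO and 309 and 256 in WT. Both RingKO libraries lay far below both WT libraries. In the authors' deposited table the means were 15.7 in RingKO and 283 in WT, which is -4.17 on the log2 scale (adjusted p = 1.26e-26). EdgeR's test gave -4.12 ± 0.25 (SE, n = 2 libraries each, Benjamini-Hochberg adjusted p = 9.48e-05). In the beta-catenin background Ring1 had 43 reads in Bcat_RingKO and 24 in Bcat, or 19.2 and 53.7 normalized reads, a ratio of 0.358 (exact 95% interval of the counts 0.213 to 0.617). Intervals of this kind cover counting error only, and with 1 library a group there is no replicate check of the difference. As CPM, reads scaled to library totals, Ring1 stood at 3.09 (1.41 to 5.87) and 4.15 (2.07 to 7.42) in RingKO, 71.7 and 57.7 in WT, 9.62 (6.96 to 13.0) in Bcat_RingKO and 26.03 (16.7 to 38.7) in Bcat. Bcat_RingKO, with the same null alleles, was thus higher in Ring1 than either RingKO library, though its interval overlapped that of RingKO library B. The Bcat library, which carried no Ring alleles, was lower in Ring1 than either WT library. Batch and genotype cannot be told apart across the 2 tables.

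Rnf2, the other catalytic subunit, was the floxed gene, and its RNA was not lower in RingKO. It had 142 and 103 reads in RingKO and 220 and 246 in WT, or 202 and 148 normalized reads in RingKO and 141 and 173 in WT. The groups overlapped. EdgeR's test gave a log2 fold change of 0.34 ± 0.19 (SE, n = 2 each, adjusted p = 0.304), with a 95% interval of the fold of 0.936 to 1.71, and the authors' deposited table gave 0.16 (adjusted p = 1). An RNA level below 0.936 of that in WT lay outside edgeR's interval. DESeq2 gave 0.32 ± 0.29 and limma 0.15 ± 0.21 (log2 scale, SE), so this bound rests on the test used. Reads per exon were not analysed here, so a transcript lacking the floxed part counts like a whole one. Rnf2 had 546 reads in Bcat_RingKO and 78 in Bcat, or 244 and 174 normalized reads, a ratio of 1.40 (1.10 to 1.80). With TMM scaling it was 1.21 (0.950 to 1.55), an interval that includes equal levels. In bulk cells, fewer cells that make an RNA and less RNA per cell cannot be told apart.

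Bmi1 had the highest RingKO to WT ratio of the PCGF genes. Its 250 bases before the RefSeq start (GRCm38.p6) are shown beside those of Pcgf2, its closest relative, because Bmi1 had this ratio and Pcgf2 the fewest reads. Capitals mark CACGTG, the canonical E-box, which reads the same on both strands; 6.02% of 32851 upstream windows of this length hold it, as do 2 of the 9 windows found for 7 of the genes.
Bmi1, chr2:18676768-18677017, plus strand: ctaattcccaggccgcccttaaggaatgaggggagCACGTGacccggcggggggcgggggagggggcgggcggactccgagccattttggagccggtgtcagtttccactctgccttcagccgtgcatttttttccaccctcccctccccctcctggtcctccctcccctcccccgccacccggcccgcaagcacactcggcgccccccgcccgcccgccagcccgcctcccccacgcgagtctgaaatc
Pcgf2, chr11:97699649-97699898, minus strand: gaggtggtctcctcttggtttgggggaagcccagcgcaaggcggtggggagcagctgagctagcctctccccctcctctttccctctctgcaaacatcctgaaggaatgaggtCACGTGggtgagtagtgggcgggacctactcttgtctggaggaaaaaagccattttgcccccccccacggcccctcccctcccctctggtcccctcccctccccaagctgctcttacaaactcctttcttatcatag
The motif began 215 bases before the start of Bmi1 and 137 bases before that of Pcgf2. The Bmi1 window held 21 CpG dinucleotides and that of Pcgf2 held 5, against a median of 6 over all windows. A match is a description of the letters and says nothing about binding.

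Bmi1 had 303 and 197 reads in RingKO and 206 and 240 in WT, or 431 and 283 normalized reads in RingKO and 132 and 169 in WT. Both RingKO libraries lay above both WT libraries, an order shared by 18.5% of 10957 entries averaging 10 or more. In the authors' deposited table the means were 358 in RingKO and 151 in WT, a fold of 2.37 with p = 0.00755 before and 0.115 after adjustment over all entries. EdgeR's test gave a log2 fold change of 1.43 ± 0.21 (SE, n = 2 each, adjusted p = 0.0037), a fold of 2.69 with a 95% interval of 1.91 to 3.78. DESeq2 gave 1.41 (adjusted p = 1.65e-05) and limma 1.22 (adjusted p = 0.0170). The size was thus alike in each test, and the call rested on the test used. Leaving out each library in turn, edgeR's log2 fold change ran between 1.14 and 1.67. Each such fit leaves 1 library in a group and cannot measure that group's spread, so only the size is given. Bmi1 had 887 reads in Bcat_RingKO and 101 in Bcat, or 397 and 226 normalized reads, a ratio of 1.76 (1.43 to 2.18). With TMM scaling the ratio was 1.51 (1.23 to 1.88). Both ratios stayed under the 2-fold used as the size rule for the beta-catenin pair.

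Marker sums of several crypt cell types also differed between the same libraries. The 5 Lgr5 stem cell markers summed to 20338 and 8755 normalized reads in RingKO and 26059 and 30554 in WT, and the 4 Paneth cell markers to 28462 and 37581 in RingKO and 13460 and 9247 in WT. The stem cell sum was mostly Olfm4: without it the other 4 came to 6808 and 4253 in RingKO and 6822 and 7036 in WT. Of these 4, Lgr5 and Smoc2 overlapped between the groups. Ascl2, at 293 and 250 in RingKO and 670 and 564 in WT, was lower in both RingKO libraries. So was Axin2, at 2377 and 1653 in RingKO and 2941 and 3124 in WT. The 6 enteroendocrine markers summed to 2656 and 2823 in RingKO and 5816 and 7111 in WT, and the 4 tuft cell markers to 171 and 194 in RingKO and 644 and 645 in WT. The 4 goblet cell markers overlapped, at 34026 and 52246 in RingKO and 39611 and 48654.5 in WT. The 4 enterocyte markers also overlapped, at 595 and 1903 in RingKO and 1315 and 1149 in WT. In the beta-catenin pair the Paneth sum was 2449 in Bcat_RingKO and 8884 in Bcat. The part of these cell types in the Bmi1 difference was not tested. The 3 other markers of cells above the crypt base, Hopx, Lrig1 and Tert, summed to 2228 and 1745 in RingKO and 2597 and 2999 in WT. Lrig1 made up nearly all of this sum, at 2140 and 1653 in RingKO and 2488 and 2897 in WT. Tert overlapped, at 72.5 and 79.0 in RingKO and 75.4 and 71.9 in WT, and none of the 3 was called in the authors' deposited table. In the beta-catenin pair the 3 summed to 1279 in Bcat_RingKO and 568 in Bcat.

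The variant PCGF genes gave smaller differences, and none passed in the authors' test or in edgeR's. Pcgf1, whose product joins the complex that KDM2B brings to unmethylated CpG islands, had 111 and 76.1 normalized reads in RingKO and 74.1 and 69.8 in WT, without overlap. Its log2 fold change in edgeR's test was 0.55 ± 0.22 (SE, n = 2 each, adjusted p = 0.161). With each library left out in turn it ran from 0.30 to 0.77, the highest value being without RingKO library B. Pcgf6, which joins the complex that MGA, MAX and E2F6 bring to germline genes, had 142 and 119 in RingKO and 180 and 182 in WT, both RingKO libraries lower, at -0.29 ± 0.16 (edgeR adjusted p = 0.297). Pcgf3 had 215 and 179 in RingKO and 220 and 274 in WT, both RingKO libraries lower, at -0.14 ± 0.17 (edgeR adjusted p = 0.642). Its RingKO library A and WT library A nearly met. Pcgf5, which shares its complex partners with Pcgf3, had 76.7 and 83.3 in RingKO and 86.9 and 74.7 in WT, and the groups overlapped. Its log2 fold change was 0.17 ± 0.21 in edgeR's test (adjusted p = 0.666) and the means in the authors' deposited table were 81.4 in RingKO and 81.5 in WT, so its sign turned with the scaling.

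By the authors' size factors, Ring1, Pcgf3 and Pcgf6 were the 3 genes with both RingKO libraries below both WT libraries, an order that 45.3% of the 10957 entries showed. Scaled by library totals Pcgf3 overlapped (CPM of 51.9 and 47.1 in RingKO and 50.9 and 61.8 in WT), while the other 7 genes kept their order or overlap. By totals 33.6% of the entries had both RingKO libraries below and 24.7% both above. The median log2 fold change of those entries was -0.18 in the authors' deposited table and -0.01 over the entries in edgeR's test. Set against these medians, Bmi1 stood at 1.42 in the authors' deposited table and 1.43 in edgeR's test. Pcgf6 stood at -0.28 and Pcgf3 at -0.14 relative to either median, while Pcgf1 stood at 0.56 and Rnf2 at 0.34.

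Pcgf2, the relative of Bmi1, was barely read. It had 4 and 6 reads in RingKO, 11 and 26 in WT, 3 in Bcat_RingKO and 1 in Bcat. Its 2 entries, isoforms that share sequence, summed to 7 and 11 reads in RingKO and 18 and 35 in WT. Its log2 fold change of -0.62 ± 0.63 in edgeR's test (adjusted p = 0.588) has an error as large as itself. Symbols with several entries had a median summed WT mean of 18.01, against 39.7 for symbols with 1 entry, so the counting may have split or dropped shared reads and the low level of Pcgf2 is uncertain.

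**Figure D1:**
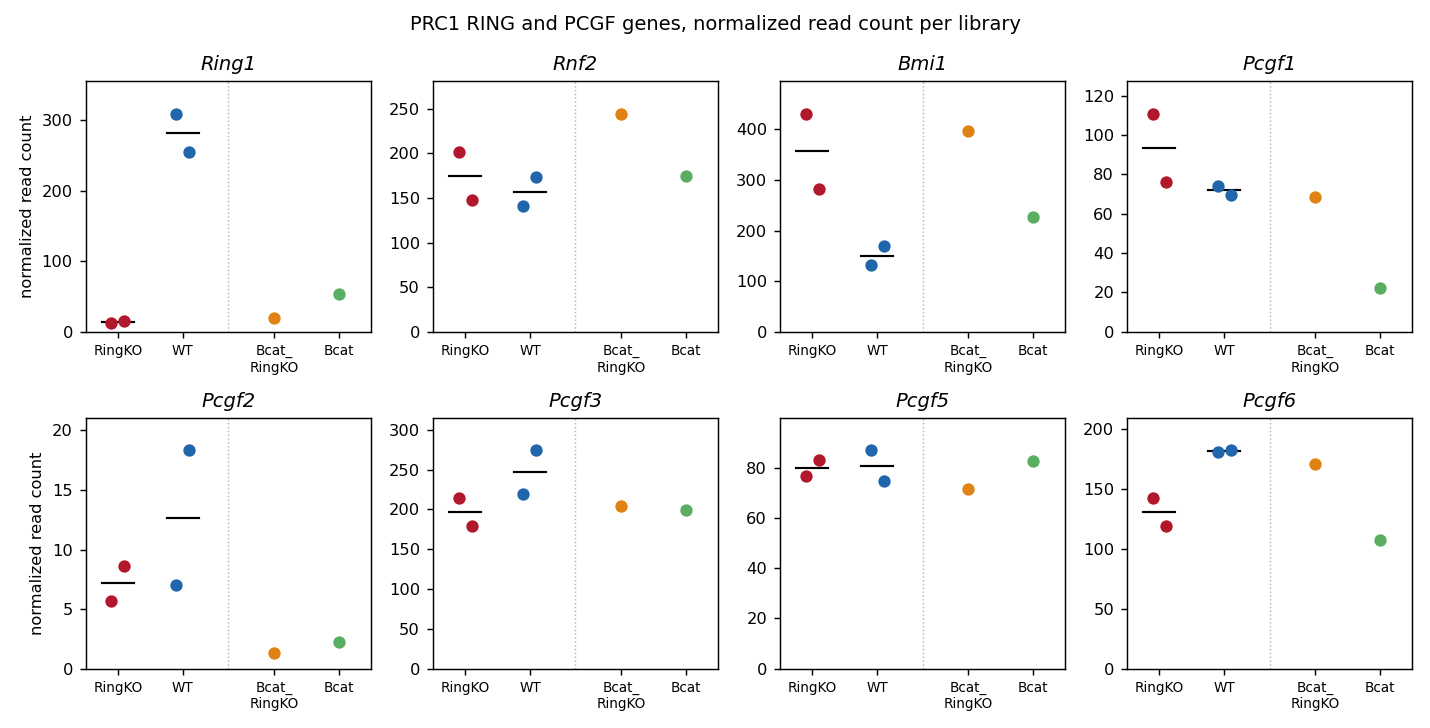
Normalized reads of the 8 subunit genes in each of the 6 libraries, a panel per gene, with the libraries on the x axis and the beta-catenin pair, scaled on its own, right of the dotted line. Ring1 was low in both RingKO libraries, at 12.8 and 15.8, and Bmi1 was higher in both RingKO libraries, at 431 and 283, than in both WT libraries.

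In the beta-catenin pair, 2 of the 8 genes passed 2-fold: Ring1, lower in Bcat_RingKO, and Pcgf1, higher. Among 12113 entries with at least 10 reads, 29.9% were at least 2-fold higher in Bcat_RingKO and 8.92% at least 2-fold lower, and the median log2 ratio was 0.36 (0.15 with TMM scaling). Pcgf1 had 153 reads in Bcat_RingKO and 10 in Bcat, a ratio of normalized reads of 3.06 (1.62 to 6.51). Pcgf6 had 382 and 48 reads, a ratio of 1.59 (1.18 to 2.20). Those of Pcgf3 (458 reads in Bcat_RingKO and 89 in Bcat) and Pcgf5 (160 and 37) were 1.03 (0.819 to 1.31), which TMM scaling turned to 0.886, and 0.865 (0.602 to 1.27), both within counting error of equal levels. Pcgf2, at 3 reads in Bcat_RingKO and 1 in Bcat, allowed no statement: its ratio was 0.60, and 2.20 with its entries summed, which would make 3 genes past 2-fold. Against the pair's own median, Bmi1 stood at 0.45 and Rnf2 at 0.12 on the log2 scale, and Pcgf1 at 1.25.

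**Figure D2:**
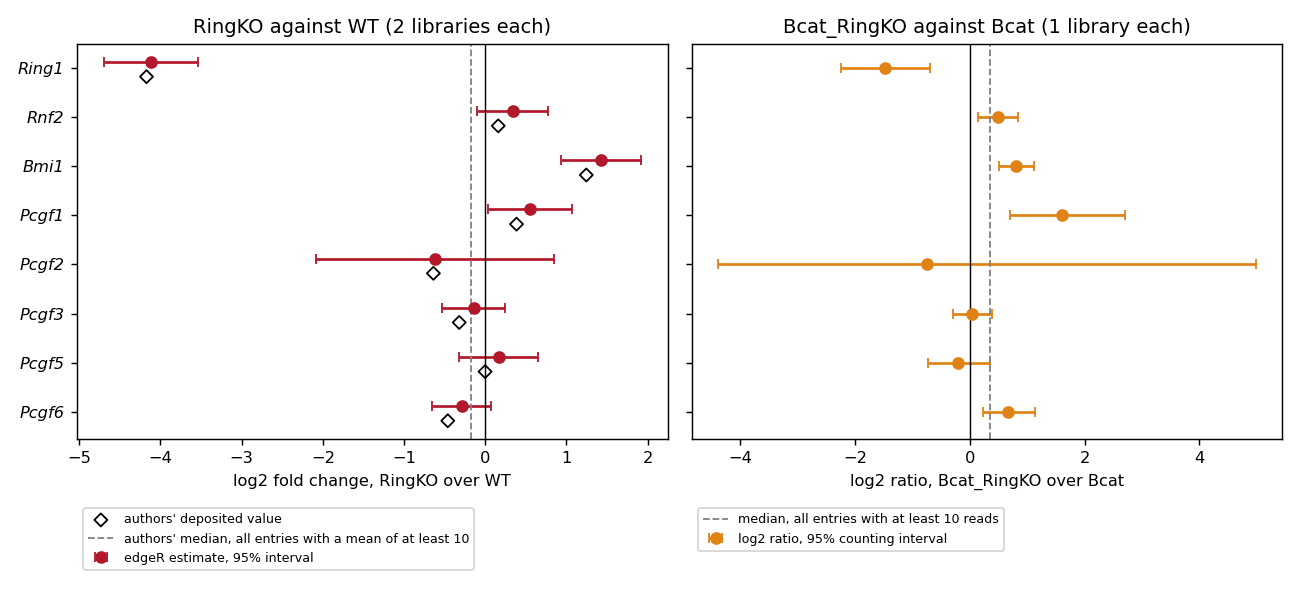
Change of each subunit gene on a log2 axis, RingKO over WT by edgeR with its 95% interval and by the authors' deposited table, and Bcat_RingKO over Bcat with the exact interval of the counts. Ring1 lay at -4.12 in edgeR's test and Bmi1 at 1.43, while the intervals of Rnf2, Pcgf2, Pcgf3, Pcgf5 and Pcgf6 in RingKO against WT crossed 0.

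Levels of different genes were set side by side per 1000 bases of transcript. In WT the order from high to low was Ring1 (152 and 126 normalized reads per 1000 bases), Pcgf1, Pcgf6, Pcgf5, Rnf2, Bmi1, Pcgf3 and Pcgf2. Pcgf1 and Pcgf6 overlapped there, as did Pcgf5 with Rnf2 and Rnf2 with Bmi1. Bmi1 had 120 and 78.7 in RingKO and 36.6 and 47.1 in WT, and in RingKO it stood beside Pcgf1 (128 and 87.9) at the top, with overlap. Below them Pcgf6, Rnf2 and Pcgf5 overlapped in RingKO, and Pcgf3, Ring1 and Pcgf2 followed. Bmi1 was the highest of the 8 in the beta-catenin pair, at 110 in Bcat_RingKO and 62.8 in Bcat, where Rnf2 (55.2) and Pcgf5 (54.9) came next on 78 and 37 reads. The transcript matched to Pcgf1 is short, at 866 bases, which lifts its level per length and bears on its rank.

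Summed per length, the RING genes came to 70.1 and 54.6 in RingKO and 197 and 181 in WT, and the 6 PCGF genes to 396 and 305 in RingKO and 296 and 307 in WT, where the groups overlapped. Rnf2 made up 91.0% and 85.8% of the RING sum in RingKO and 22.6% and 30.4% in WT. It made up 89.1% in Bcat_RingKO and 67.7% in Bcat. The ratio of Rnf2 to the PCGF sum was 0.161 and 0.153 in RingKO and 0.150 and 0.178 in WT, again with overlap, and 0.225 in Bcat_RingKO and 0.251 in Bcat. The ratio of both RING genes to the PCGF sum was 0.177 and 0.179 in RingKO and 0.664 and 0.588 in WT, without overlap. Ring1 carried null alleles in RingKO and was the highest of these genes in WT. The lower ratio and the larger Rnf2 part of the RING sum in RingKO thus follow from the genotype. The PCGF sum holds Bmi1, so Rnf2 was also set against single PCGF genes. The ratio of Rnf2 to Pcgf3 was 2.29 and 2.01 in RingKO and 1.56 and 1.54 in WT, and that to Pcgf6 was 0.970 and 0.848 in RingKO and 0.533 and 0.651 in WT, both higher in RingKO without overlap. The ratio to Bmi1 was lower in RingKO, and those to Pcgf1, Pcgf2 and Pcgf5 overlapped. Among all pairs of entries averaging 10 or more with reads in each library, 58% had ratios without overlap between RingKO and WT. A lack of overlap is thus common and not particular to Rnf2.

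Bmi1 made up 30.3% and 25.8% of the PCGF sum in RingKO and 12.4% and 15.3% in WT. This is 14.2 percentage points more in RingKO, and Pcgf6 held 16.6% and 18.1% in RingKO and 28.2% and 27.4% in WT. Neither share overlapped between the groups. In the beta-catenin pair Bmi1 held 32.2% in Bcat_RingKO and 28.5% in Bcat, the latter on 286 PCGF reads. Batch and genotype cannot be told apart when these shares are set against those of WT and RingKO. The ratio of Bmi1 to Rnf2 was 1.88 and 1.68 in RingKO and 0.823 and 0.858 in WT, and 1.43 in Bcat_RingKO and 1.14 in Bcat. Such ratios within a library do not depend on its scaling. Of the 28 pairs among the 8 genes, 18 had ratios that did not overlap between RingKO and WT, against 58% of all pairs of entries averaging 10 or more with reads in each library, so the count is near the background. In 7 of 7 pairs with Bmi1 the Bmi1 side was higher in RingKO, but these pairs all use the same Bmi1 values. Of the 15 pairs without Ring1 or Bmi1, 5 did not overlap. With 2 libraries a group the exact two-sided permutation test cannot go below p = 0.333, so no ratio can pass that test.

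**Figure D3:**
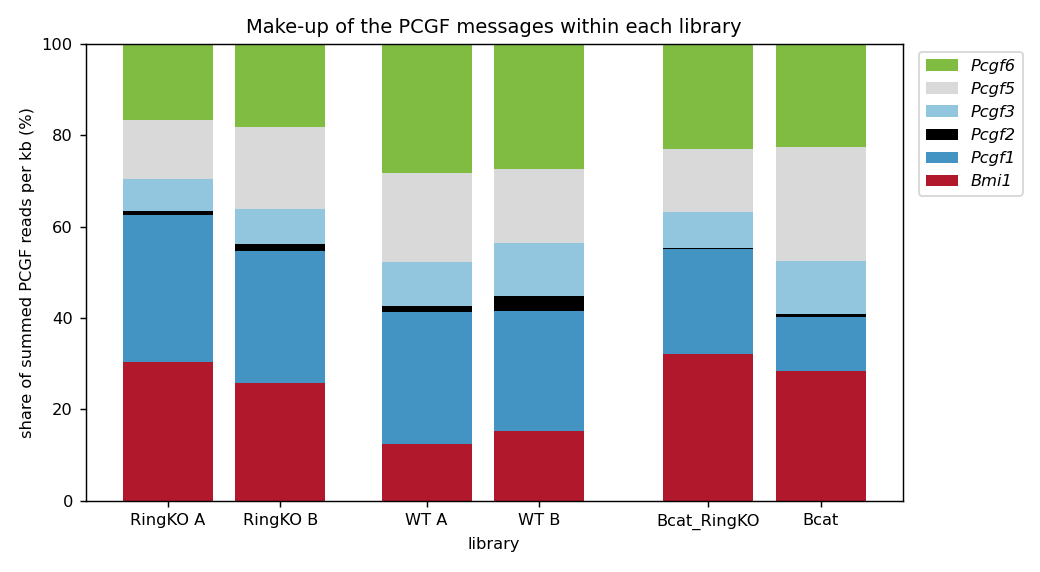
Share of each PCGF gene in the summed PCGF level of a library, in percent on the y axis, from reads per length, with a stacked bar per library. The Bmi1 share was 30.3% and 25.8% in the RingKO bars and 12.4% and 15.3% in the WT bars.

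Among genes whose products bind these subunits, the authors' test called Cbx8 of canonical PRC1. Of 39 partner genes in 6 lists, 37 were in the table and 1 rose in RingKO, while 0 fell, against 3.14% and 1.76% of all entries. At an unadjusted p under 0.05 there were 7, against 12.3% of all entries. EdgeR called 3 of the 33 it tested as higher, against 9.91%, so none of these pooled counts stands apart from the background. All 3 were among the 7 canonical PRC1 genes, of which DESeq2 called 2, against 6.88% of all entries. No list was tested as a set. Cbx8, a chromodomain protein that binds BMI1-containing cores, had 148 and 132 normalized reads in RingKO and 70.3 and 66.9 in WT, with 1.03 by the authors' deposited table (adjusted p = 0.0357) and 1.21 ± 0.18 in edgeR's test (SE, n = 2 each). In the beta-catenin pair Cbx8 had a ratio of 3.56 (1.89 to 7.55) on 178 reads in Bcat_RingKO and 10 in Bcat. The 7 canonical genes had a median log2 value of 0.32 in the authors' deposited table, against -0.18 over all entries averaging 10 or more. Cbx2 had 298 and 279 normalized reads in RingKO and 256 and 206 in WT, and Cbx7, which overlapped, 246 and 233 in RingKO and 228 and 254 in WT; both were named after their values were seen, and neither was called by the authors' test, edgeR or DESeq2. Named likewise, Cbx6 (0.58 ± 0.14, adjusted p = 0.033) and Scmh1 (0.84 ± 0.17, adjusted p = 0.016) were also called higher by edgeR. DESeq2 called Cbx6 (adjusted p = 0.036) but not Scmh1 (adjusted p = 0.098).

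The other 5 lists held 30 genes of the variant complexes and the H2A deubiquitinases, which remove the mark. Of these 0 were called in either direction by the authors' test, edgeR or DESeq2. Over all entries the authors' test called 4.9%, edgeR 9.91% higher and 2.95% lower, and DESeq2 6.88% and 1.89%. An unadjusted p under 0.05 by the authors' test was reached by 5 of the 30 genes, against 12.3% of all entries. The counts were not tested against these shares. EdgeR tested 26 of the 30, and some entries had too few reads for a call to be likely. Bcor had 1 read or fewer and Asxl2 had 4 or fewer in each WT and RingKO library. The median log2 fold change of the 30 genes in the authors' deposited table was -0.24, against -0.18 over all entries averaging 10 or more. Over the 26 that edgeR tested it was -0.08, against -0.01 over all entries in edgeR's test. Rybp, which stimulates variant PRC1, had 318 and 205 normalized reads in RingKO and 222 and 277 in WT, which overlapped. The entries used for Kdm2b and Yaf2 were near the floor in all 4 libraries, at 17 reads or fewer. That of Yaf2 is a non-coding RefSeq entry, so its reads need not give the level of the coding RNA. Kdm2b, Yaf2 and Rybp were named after their values were seen.

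**Figure D4:**
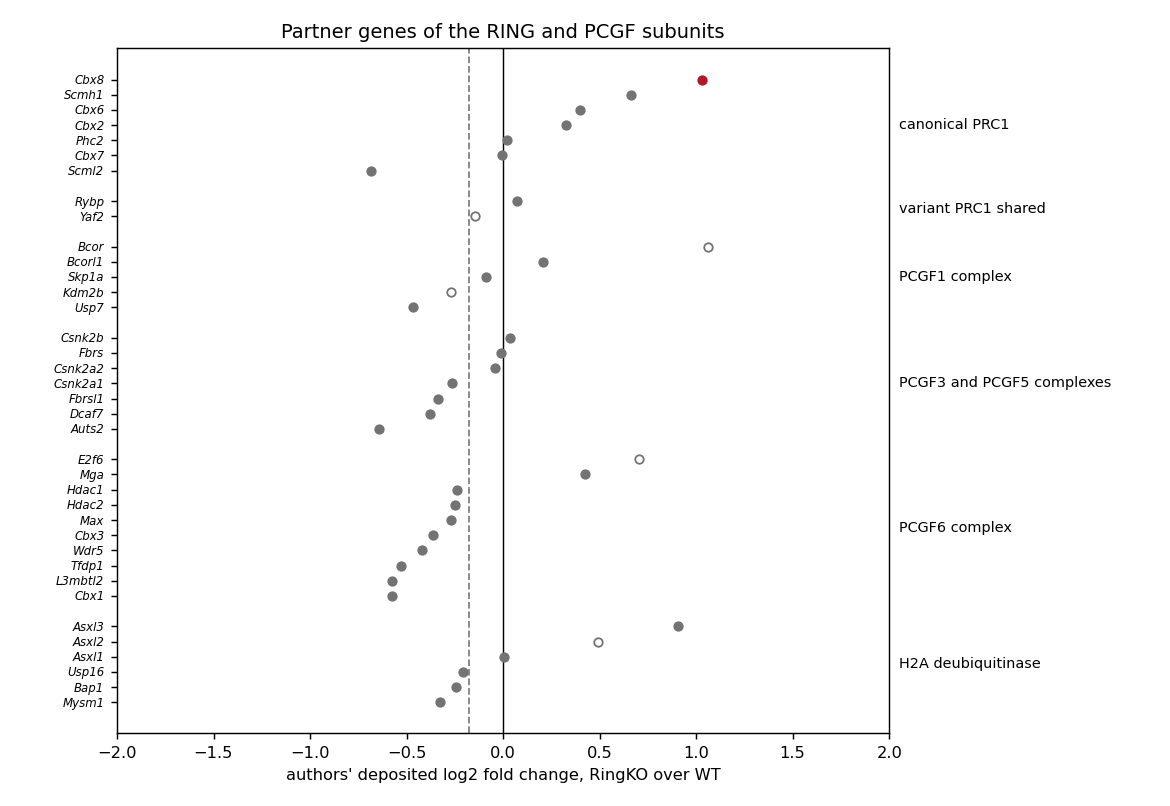
Log2 fold change of 37 partner genes, RingKO over WT, on the x axis, from the authors' deposited table, by list. The red point passed the adjusted p, open points have a mean under 10, and the dashed line is the median of all entries averaging 10 or more. Cbx8, at 1.03, is the red point.

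Genes with the most similar pattern over the 6 libraries were found by Euclidean distance of log2 normalized reads, centred within each table, among 7894 entries averaging 50 or more. For Ring1 they were AI747448 (distance 1.12), Nox1 (1.13) and Gm8979 (1.45), so no entry came close. For Bmi1 they were Ttc7b (0.142), Tmem37 (0.297) and Sccpdh (0.366), and 16 entries lay within 0.5. For Rnf2 they were Slc25a26 (0.0908), Myo6 (0.0912) and Ppp2r1b (0.142), and 768 entries lay within 0.5. A flat pattern such as that of Rnf2 is shared by many genes.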

How the data were processed

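The members and gene lists were chosen with earlier results of these data known. Per the labels' protocols, RNA was extracted with RNeasy Plus Micro and libraries made with TruSeq RNA v2. Per the submitters' processing notes, TopHat, DESeq and the build mm9 were used, with no versions. Which counter, annotation and strand setting were used is not given in the sources here.

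The authors deposited normalized coverage (signal) per RefSeq entry, as group means for WT and RingKO (18376 entries) and per library for the beta-catenin pair (17076). From the values, each is a read count plus 1 over a size factor. The authors also deposited a fold (ratio), its log2 value and, for RingKO against WT, p-values with an adjusted p. The 2 tables were scaled separately, so normalized levels are compared within a table. In 61 entries a date was turned back into a gene symbol.

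Whole reads of the single libraries were recovered from the deposited values: 100% were whole within 0.001 in the beta-catenin pair, and each WT mean had 1 solution in 18365 entries and more in 11 (RingKO 18375 and 1). The size factors were 0.704 and 0.696 in RingKO, 1.56 and 1.42 in WT, 2.24 in Bcat_RingKO and 0.447 in Bcat. The main call for RingKO against WT was the authors' deposited adjusted p under 0.05. Alternatives on the recovered reads were edgeR 4.0.16 (quasi-likelihood, TMM, filterByExpr, Benjamini-Hochberg), DESeq2 1.42.0 and limma 3.58.1 on log2(normalized reads + 1), in R 4.3.3, all tested on simulated data, and each library was left out in turn. The beta-catenin pair got exact conditional binomial (Clopper-Pearson) 95% intervals and a 2-fold size rule. Levels per length used GENCODE transcripts of GRCm38, a different build from the files. Upstream sequences are from RefSeq (GRCm38.p6), found for 7 of the 8 genes. Named genes were the 8 subunit genes, up to 4 called genes of each partner list, called neighbours on the chromosome, the 3 nearest patterns of Ring1, Rnf2 and Bmi1, and Cdkn2a, Lgr5, Ascl2 and Olfm4. Some genes are not reported here.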

Additional observations from a re-analysis of the deposited data

Results flagged for a closer look

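By the authors' size factors, Pcgf3 and Pcgf6 were lower in RingKO than in WT in both libraries, while in the beta-catenin pair the Bcat_RingKO library was not lower than the Bcat library. The Bcat_RingKO to Bcat ratio was 1.03 for Pcgf3 and 1.59 for Pcgf6. The difference between the 2 settings was not tested, since the beta-catenin pair has 1 library a group. For Pcgf3 the groups overlapped when scaled by library totals, at 51.9 and 47.1 CPM in RingKO and 50.9 and 61.8 CPM in WT, and the ratio turned to 0.886 with TMM scaling. Pcgf6 stayed lower in RingKO by library totals, and its ratio was 1.37 with TMM scaling.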

How the results depend on the processing

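Alternatives were run on the reads recovered from the authors' means, and the main call is the authors' own. Members called higher in RingKO numbered 0 in the authors' deposited table. They numbered 1 (Bmi1) with edgeR, DESeq2, limma with either pseudocount, RLE scaling, library totals, no filter on low counts or summed entries. Partner genes called higher numbered 1, 3 with edgeR, 2 with DESeq2 and 1 to 5 with a library left out, and those called lower 0, and 0 to 4 with a library left out. Over all entries the authors called 900, edgeR 1437, DESeq2 1112 and limma 1457, of which 64.1%, 77.0%, 78.4% and 58.1% were higher. A fit with a library left out has 1 library in a group and cannot measure its spread, so calls from such fits are not given. The log2 fold change of Pcgf5 changed sign, to 0.17 with edgeR, 0.15 with DESeq2, 0.18 with RLE, 0.12 with library totals, 0.13 with no filter and 0.17 with summed entries, and 0.043 to 0.29 with a library left out; that of Pcgf3 ran from -0.29 to 9.4e-05 with a library left out. The Bmi1 share of the PCGF sum was 14.2 percentage points higher in RingKO, and 20.7 without length correction. The causes were not tested. No paired analysis was possible because the recovered libraries carry no replicate number. Depth limits Pcgf2 in all libraries and Ring1 and Pcgf1 in Bcat.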

Other observations

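Of 16 annotated neighbours of the subunit genes, none overlapping them, 2 rose in RingKO by the authors' test and 0 fell, against 3.14% and 1.76% of all entries. Fam129a, 70382 bases from Rnf2, had 59 and 69 reads in RingKO and 38 and 44 in WT, or 1.71 on the log2 scale by the authors' deposited table (adjusted p = 0.00109). Ina, a neuronal intermediate filament gene 8290 bases from Pcgf6, had 15 and 10 reads in RingKO and 1 and 2 in WT, with 3.51 by the authors' deposited table (adjusted p = 0.0165). Commd3, whose annotated end lies 787 bases before Bmi1, was chosen after its values were seen. It had 418 and 317 normalized reads in RingKO and 240 and 245 in WT, without overlap, at 0.60 by the authors' deposited table (adjusted p = 0.21) and 0.78 ± 0.16 in edgeR's test (SE, n = 2 each, adjusted p = 0.015). The Bmi1 difference was larger, at 1.43 in edgeR's test; the difference between the genes was not tested.

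Among the stem cell markers, Lgr5 had 655 and 319 normalized reads in RingKO and 602 and 650 in WT, and Olfm4 had 13530 and 4502 in RingKO and 19237 and 23518 in WT. RingKO library B was the lower library for both. Ascl2, a Wnt target and stem cell regulator, fell: it had 293 and 250 normalized reads in RingKO and 670 and 564 in WT, or -1.18 on the log2 scale by the authors' deposited table (adjusted p = 1.79e-05).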
